A study of Rattus norvegicus with 35 samples.

Results

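The data described here are liver expression profiles of 4 rats fed myclobutanil at 2000 ppm, set against those of 7 rats on control feed (0 ppm). They were chosen by their sample titles and are 11 of the 32 arrays with values in the series. Another animal at 2000 ppm is listed without values and was not used here. The animals were Wistar Han IGS rats. Exposure was through the diet and ran from gestation day 6, before their birth, to postnatal day 92. Each array holds the liver RNA of 1 animal. Arrays at 2000 ppm carry the replicate numbers 2 to 5 and controls 1 to 7. The other groups, used for the estimate of the spread and for single values, received myclobutanil at 500 ppm (5 arrays), propiconazole at 500 ppm (3) or 2500 ppm (4), or triadimefon at 500 ppm (5) or 1800 ppm (4). Neither the sex of the animals nor whether they shared litters is given in the sources used here. The platform was the Affymetrix Rat Genome 230 2.0 array, on which a probe set is the group of probes that reads 1 transcript.

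Myclobutanil is a triazole fungicide. Triazoles block the fungal lanosterol demethylase, whose rat counterpart is Cyp51 in cholesterol synthesis. In rodent liver, many triazoles activate the nuclear receptors CAR and PXR, which switch on a set of drug-metabolising genes. Cytochromes P450 of the Cyp2b and Cyp3a families carry out phase I oxidation, carboxylesterases and epoxide hydrolase split esters and epoxides, and the UDP-glucuronosyltransferases (Ugt) and glutathione transferases (Gst) attach groups that make the products easier to excrete. Cyp2b1 and Cyp2b2 are the classic rat genes of phenobarbital induction. The comparison asks which liver transcripts differ between animals at 2000 ppm and controls.

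The transcript with the largest difference upward was read by a probe set that the platform annotation gives to both Cyp2b1 and Cyp2b2, called the Cyp2b probe set below. The promoters of both genes are shown because the pair shares 1 probe set and, as near copies, cannot be told apart by it. The sequences are RefSeq's (GRCr8), from 250 bases before to 50 bases after the annotated start of each gene, on the plus strand at chr1:90645869-90646168 for Cyp2b1 and chr1:90722031-90722330 for Cyp2b2. Aligned without gaps, 275 of 283 shared bases were identical (97.2%), and the capitals mark the 8 bases that differ.
Cyp2b1: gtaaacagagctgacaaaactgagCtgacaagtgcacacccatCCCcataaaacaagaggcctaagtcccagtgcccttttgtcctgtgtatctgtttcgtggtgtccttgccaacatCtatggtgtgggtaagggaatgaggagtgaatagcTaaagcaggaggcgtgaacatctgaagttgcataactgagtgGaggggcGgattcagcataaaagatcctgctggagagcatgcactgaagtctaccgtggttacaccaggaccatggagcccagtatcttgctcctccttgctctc
Cyp2b2: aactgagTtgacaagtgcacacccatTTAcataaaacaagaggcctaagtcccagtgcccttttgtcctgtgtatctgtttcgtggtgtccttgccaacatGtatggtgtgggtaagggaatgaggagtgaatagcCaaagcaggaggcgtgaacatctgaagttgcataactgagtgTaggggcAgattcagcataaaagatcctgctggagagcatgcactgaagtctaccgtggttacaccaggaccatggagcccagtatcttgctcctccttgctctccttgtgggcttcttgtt
Searched on both strands, each window holds CATAAA at 2 places and neither holds TATAAA. Of 33469 RefSeq rat promoters of the same length, 12.7% hold CATAAA at 1 or more places and 14.2% hold TATAAA. The share with CATAAA at 2 places was not counted.

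Some measured properties of the arrays moved with the groups. No source used here gives the scale, log base or centring of the deposited score, so differences are reported as differences of score and not as fold changes. RNA integrity was read from GAPDH and β-actin control probe sets, whose scores at the 3′ end exceed those at the 5′ end by more when RNA is broken. This excess, the 3′–5′ difference, was 0.609, 0.594, 0.726 and 0.525 at 2000 ppm, against a lowest of 0.50, a median of 1.29 and a highest of 2.12 in the controls. All 4 arrays at 2000 ppm thus sat at the low end of the controls' range, and controls 4 to 7 were the ones with a GAPDH difference above 0.9. Controls 5 to 7 also carry animal numbers above 3000, while every animal at 2000 ppm has a lower number. Scores spread less at 2000 ppm: the standard deviation over its arrays had a median of 0.0445 across probe sets, against 0.0721 for the controls. The part of these differences in the results was not tested beyond the alternatives given beside them.

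The labelled tissue was checked against markers. The mean score of 15 hepatocyte markers, such as Cps1 and Hnf4a, lay between 3.53 and 4.04 on the arrays at 2000 ppm and between 3.67 and 4.73 in the controls. That of 13 lymphocyte markers lay between -0.09 and -0.04 at 2000 ppm and between -0.12 and -0.01 in the controls. The labels name testis in the extraction protocol and liver in the titles, so 14 testis germ cell markers were read as well. Their mean score was -0.01, -0.02, 0.07 and 0.49 at 2000 ppm (replicates 2 to 5), against a lowest of -0.15, a median of 0.04 and a highest of 0.18 in the controls. Replicate 5 at 2000 ppm stood apart: Prm1, a protamine that packs sperm DNA, had a score of 2.51 there, against 0.95, 0.85 and 1.11 in replicates 2, 3 and 4. The controls ran for Prm1 from a lowest of -0.27 over a median of 1.32 to a highest of 1.71. Odf1, a protein of the sperm tail, had 1.34 in replicate 5, against 0.21 to 0.40 in replicates 2 to 4 and -0.14 to 0.59 in the controls. The part of this signal in the results was not tested, and results without replicate 5 are given below.

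**Figure D1:**
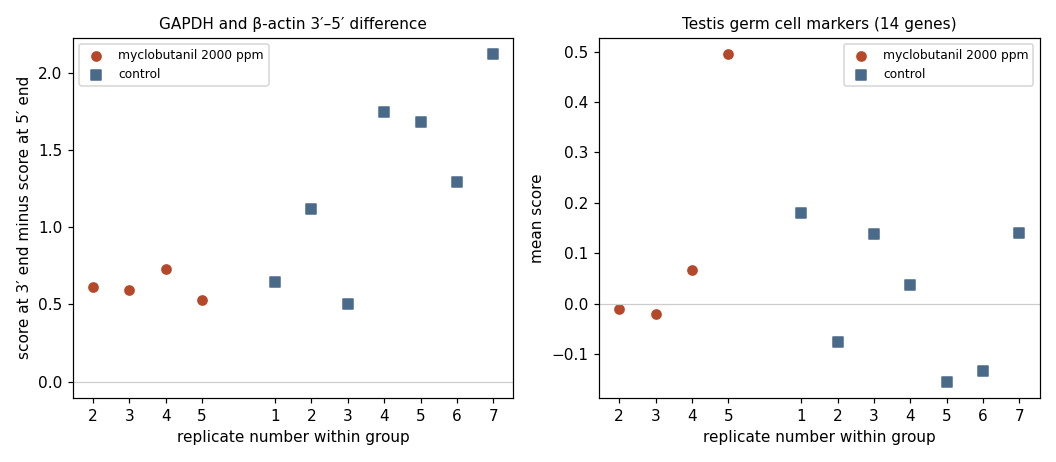
The left panel plots the 3′–5′ difference (score at the 3′ end minus score at the 5′ end, mean of GAPDH and β-actin) and the right panel the mean score of 14 testis germ cell markers, with 1 point per array, myclobutanil 2000 ppm left of the controls. The 4 arrays at 2000 ppm lie between 0.525 and 0.726 in the left panel, and replicate 5 lies at 0.49 in the right one.

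Of 31042 probe sets, 20 (0.0644%) passed the test of 2000 ppm against the controls (limma, Benjamini-Hochberg adjusted p under 0.05): 3 were higher (0.00966%) and 17 lower (0.0548%). Per gene, 10 of 14217 (0.0703%) passed, 1 higher (0.00703%) and 9 lower (0.0633%). The probe sets that passed number few beside those that leaned: 7518 had an unadjusted p under 0.05, 1097 of them higher and 6421 lower. On 1005 probe sets (3.24%) all 4 arrays at 2000 ppm lay below all 7 controls, and on 103 (0.332%) all 4 lay above them. The median difference over all probe sets was -0.04. After quantile normalisation, which gives every array the same distribution of scores, 79 probe sets passed, 43 of them higher and 36 lower. After each array was centred and scaled 44 passed, with 15 higher and 29 lower. When the 3′–5′ difference entered the model as a covariate 2 passed, the Cyp2b probe set and Ugt2b1, both higher. No probe set passed among animals numbered below 3000 alone, which leaves 4 controls, where 2961 had an unadjusted p under 0.05. The counts also moved with single arrays: no probe set passed without control 4 or without replicate 2, 3 or 4 at 2000 ppm (5847, 5157, 5186 and 6318 at an unadjusted p under 0.05), and 332 passed without control 1 and 3013 without control 3.

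The 3 probe sets that rose read Cyp2b, App and Birc7. The Cyp2b probe set had scores of 4.19, 4.48, 4.71 and 3.55 at 2000 ppm, against a lowest of 2.14, a median of 2.60 and a highest of 3.03 in the controls. The 2 groups did not overlap, and replicate 5 was the nearest to the controls. The difference was 1.72 ± 0.309 (SE; means 4.23 ± 0.502, n = 4, and 2.51 ± 0.320, n = 7, SD; adjusted p = 0.0317, limma). It was 1.95 without replicate 5 (adjusted p = 0.0251), 1.75 without controls 4 to 7 and the other arrays of high GAPDH difference (adjusted p = 0.0281), and 1.98 with the 3′–5′ covariate (adjusted p = 0.0475). After quantile normalisation it was 2.10 (adjusted p = 2.26e-06). Among animals numbered below 3000 it was 1.61, which did not pass (adjusted p = 0.172).

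App encodes the amyloid precursor protein, a membrane protein that is cleaved by secretases. Its probe set that passed had scores of 1.50, 1.67, 1.59 and 1.46 at 2000 ppm, against a lowest of 0.77, a median of 1.02 and a highest of 1.17 in the controls. The difference was 0.56 ± 0.102 (adjusted p = 0.0327, limma). The gene has 2 further probe sets, on which the differences were 0.45 (adjusted p = 0.0950) and 0.24 (adjusted p = 0.331). The probe set that passed is not the gene's brightest, so App is not among the genes that passed in the counts per gene. On all 3 probe sets every array at 2000 ppm lay above every control (0.332% of all probe sets). The probe set that passed was picked for small p on the same scores, which favours such a gap. The App relatives Aplp1 and Aplp2 had differences of -0.09 and -0.27 and overlapped with the controls.

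Birc7 encodes livin, a member of the family of inhibitor of apoptosis proteins. Its scores were 0.26, 0.23, 0.32 and 0.19 at 2000 ppm, against a lowest of -0.02, a median of 0.02 and a highest of 0.18 in the controls. The difference was 0.21 ± 0.0342 (adjusted p = 0.0236, limma). All of these scores lie near the middle of an array's distribution, whose median was between 0.01 and 0.05 on these 11 arrays.

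**Figure D2:**
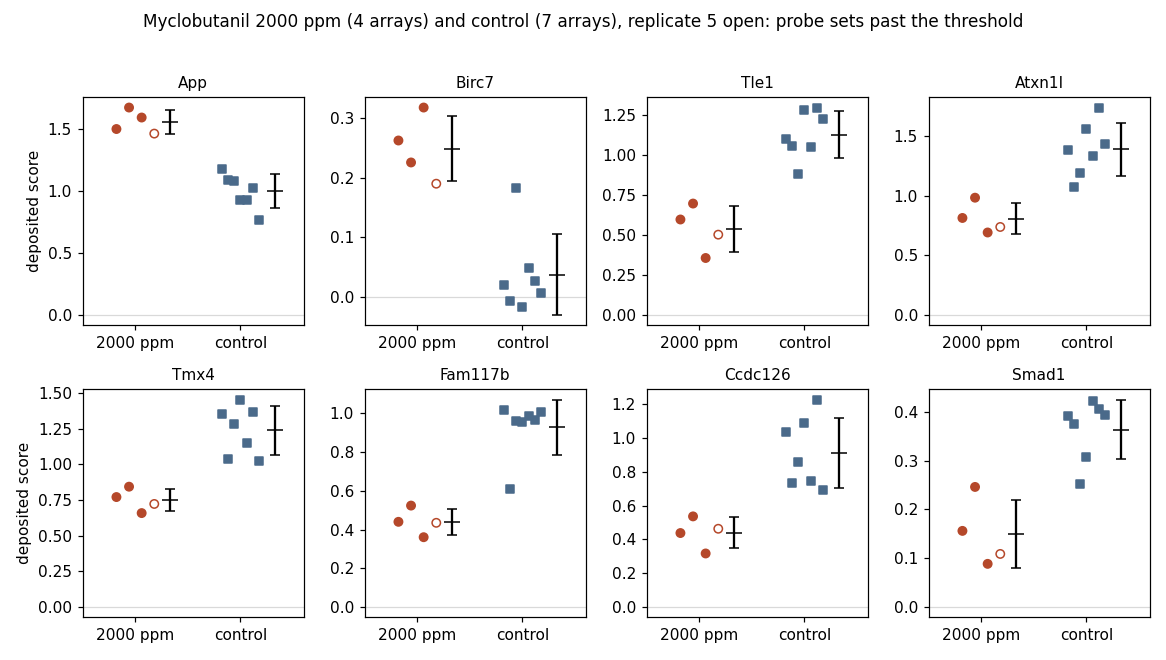
Deposited score per array for 8 of the probe sets that passed, 1 panel each, with myclobutanil 2000 ppm (circles, replicate 5 open) left of the controls (squares). The bars beside the points give mean and SD. App and Birc7 lie higher at 2000 ppm and the other 6 lower, with no overlap between the groups.

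The 17 probe sets that fell had differences from -1.52 to -0.11, with a median of -0.35. 12 of them carry 1 gene symbol and 5 carry none. On 15 of the 17, every array at 2000 ppm lay below every control (3.24% of all probe sets), and the exceptions were 1379888_at and Adgrv1. Selection by small p on the same scores favours such a gap, so it is not a separate result. The largest fall was that of 1379888_at, a probe set without a gene symbol. Its scores were -0.05, -0.08, 0.10 and 1.13 at 2000 ppm, against a lowest of 1.12, a median of 1.98 and a highest of 2.16 in the controls. Replicates 2 to 4 thus sat near 0, close to the median score of an array, while replicate 5 overlapped with the lowest control. The difference was -1.52 ± 0.255 (adjusted p = 0.0236, limma), and without replicate 5 it was -1.81 (adjusted p = 0.00415).

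Tle1, Atxn1l, Hivep1 and Smad1 are known as regulators of transcription, and they are set together here after their values were seen. Tle1, a Groucho-type co-repressor, had 0.60, 0.70, 0.36 and 0.50 at 2000 ppm, against a lowest of 0.89, a median of 1.10 and a highest of 1.30 in the controls. The difference was -0.59 ± 0.110 (adjusted p = 0.0327, limma). Atxn1l, a relative of ataxin 1 and a partner of the repressor Capicua, had 0.81, 0.98, 0.69 and 0.74 at 2000 ppm, against 1.07, 1.38 and 1.74 as lowest, median and highest of the controls. Its difference was -0.58 ± 0.113 (adjusted p = 0.0405), and its other probe sets had -0.63 (adjusted p = 0.0704) and 0.00 (adjusted p = 0.973). Hivep1, a zinc finger protein that binds enhancers, differed by -0.24 ± 0.0404 (adjusted p = 0.0236), with all arrays at 2000 ppm at or below -0.13 and all controls at or above -0.09. Smad1, which carries signals of bone morphogenetic protein receptors to the nucleus, differed by -0.21 ± 0.0428 (adjusted p = 0.0484) on the probe set that passed and by -0.51 (adjusted p = 0.0922) on its brighter one.

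The other named genes that fell are known for separate tasks in the cell. Mbnl3, a muscleblind-type regulator of splicing, differed by -0.35 ± 0.0646, with scores from -0.27 to -0.21 at 2000 ppm and from -0.08 to 0.25 in the controls. Champ1, a zinc finger protein of chromosome alignment, differed by -0.35 ± 0.0632 and, on its other probe set, by -0.24 (adjusted p = 0.0639). Ahctf1, which seeds the assembly of nuclear pores, had 0.44, 0.41, 0.43 and 0.48 at 2000 ppm, against a lowest of 0.65, a median of 0.80 and a highest of 0.95 in the controls. Its 3 probe sets gave -0.39 (adjusted p = 0.0405), -0.42 (0.0725) and -0.10 (0.466), so the 3 gave unequal values. Tmx4, a thioredoxin-like protein of the endoplasmic reticulum membrane, had 0.77, 0.84, 0.66 and 0.72 at 2000 ppm, against a lowest of 1.03, a median of 1.28 and a highest of 1.46 in the controls. Its difference was -0.49 ± 0.0936, while a second, dim probe set gave -0.06. Myo10, a myosin of filopodia, differed by -0.24 ± 0.0408 on one probe set and by 0.02 on another. Adgrv1, an adhesion receptor, differed by -0.29 ± 0.0578 and overlapped with the controls through replicate 5, at 0.24 against a lowest control of 0.21. Ccdc126 and Fam117b differed by -0.47 and -0.49.

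**Figure D3:**
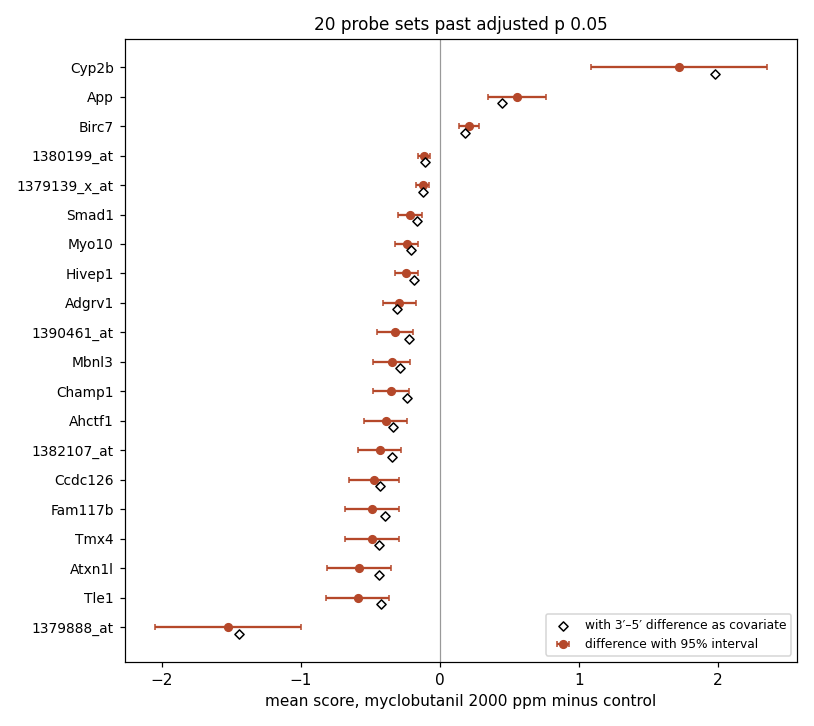
Difference of the mean score, myclobutanil 2000 ppm minus control, for the 20 probe sets that passed, with 95% confidence intervals (filled circles), and the same difference with the 3′–5′ covariate (open diamonds). The Cyp2b probe set lies at 1.72 and 1379888_at lies at -1.52.

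The direction of the 20 probe sets was the same under the alternatives that touch RNA integrity and the animal numbers. All 17 falls and all 3 rises kept their sign with the 3′–5′ covariate, without arrays whose GAPDH difference was high, and among animals numbered below 3000. The 20 had been picked for small p on the same arrays, so kept signs were largely set by that choice and are no separate support. With the covariate 18 of the 20 differences were smaller in size, the exceptions being Cyp2b and Adgrv1, and the adjusted p of the 20 ran from 0.0475 to 0.441. Within the group, replicate 5 was the array nearest the control mean on 11 of the 20 probe sets, and replicate 4 was the farthest from it on 13. Without replicate 5, 13 of the 20 differences were larger in size, and 6 of the 20 still passed.

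Drug-metabolising enzymes other than Cyp2b did not pass on the deposited scores. Among 17 measured CAR and PXR phase I genes the median difference was -0.03, against -0.05 over all genes. None passed, 3 were higher at an unadjusted p under 0.05 (361 of all 14217 genes, 2.54%), and none was lower (3149 of all genes, 22.1%). After quantile normalisation 5 of the 17 passed, beside 43 of all genes (0.302%), and their median was 0.21, with that of all genes at 0.00. Of the 623 measured genes of all lists, 12 passed there, and 11 of these were higher (25 of all genes, 0.176%): Akr7a3, Aldh1a1, Birc7, Ces2c, Cyp2c6v1, Cyp3a18, Ephx1, Gstm1, Gstt3, Ugt2a1 and Ugt2b1. Fabp5, a fatty acid binding protein, was the one lower.

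Ugt2b1, a glucuronosyltransferase, had 3.40, 3.60, 3.84 and 3.44 at 2000 ppm, against a lowest of 2.28, a median of 2.58 and a highest of 2.78 in the controls. The groups did not overlap, and the difference was 1.03 ± 0.230 (adjusted p = 0.0580, limma), 1.36 after quantile normalisation and 1.31 with the covariate (adjusted p = 0.0475). Aldh1a1, which oxidises retinal and other aldehydes, had 2.76, 2.88, 3.07 and 2.64 at 2000 ppm, against a lowest of 0.89, a median of 2.00 and a highest of 2.09 in the controls. Its difference was 0.999 ± 0.255 (adjusted p = 0.0768), and control 7, the lowest, stood apart from the other controls. Ces2c, a carboxylesterase, differed by 0.72 ± 0.164 (adjusted p = 0.0580), Ugt2a1 by 0.48 ± 0.102 (adjusted p = 0.0580) and Ephx1, the microsomal epoxide hydrolase, by 0.80 ± 0.276 (adjusted p = 0.114). On each of these genes every array at 2000 ppm lay above every control, which held for 43 of all genes (0.302%). They were named for small p on the same scores, which favours such a gap, so it is not a separate result. Cyp2b3, a Cyp2b gene known as constitutive in rat liver, differed by -0.26 ± 0.358, and Cyp3a23-3a1, the rat Cyp3a gene of classic PXR induction, by -0.16 ± 0.370 (adjusted p = 0.808). Cyp3a23-3a1 changed sign with the processing: the difference was 0.17 after quantile normalisation. On the deposited scores it was 0.46 with the covariate and 0.0658 without the arrays of high GAPDH difference.

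The aryl hydrocarbon receptor system was read separately. Cyp1a1, the P450 that this receptor switches on, had 1.23, 1.45, 1.08 and -0.26 at 2000 ppm, against a lowest of -0.11, a median of 0.02 and a highest of 0.34 in the controls. Replicates 2 to 4 lay above every control, and replicate 5 lay below every control. The difference was 0.82 ± 0.361 (adjusted p = 0.173, limma). The receptor gene itself, Ahr, had 0.44, 0.28, 0.60 and 0.32 at 2000 ppm, against a lowest of -0.19, a median of 0.03 and a highest of 0.23 in the controls, with a difference of 0.42 ± 0.104 (adjusted p = 0.0738). Of 9 measured genes of the list none passed, 3 were higher (2.54% of all genes) and 1 lower (22.1%) at an unadjusted p under 0.05, and the median difference was 0.07.

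**Figure D4:**
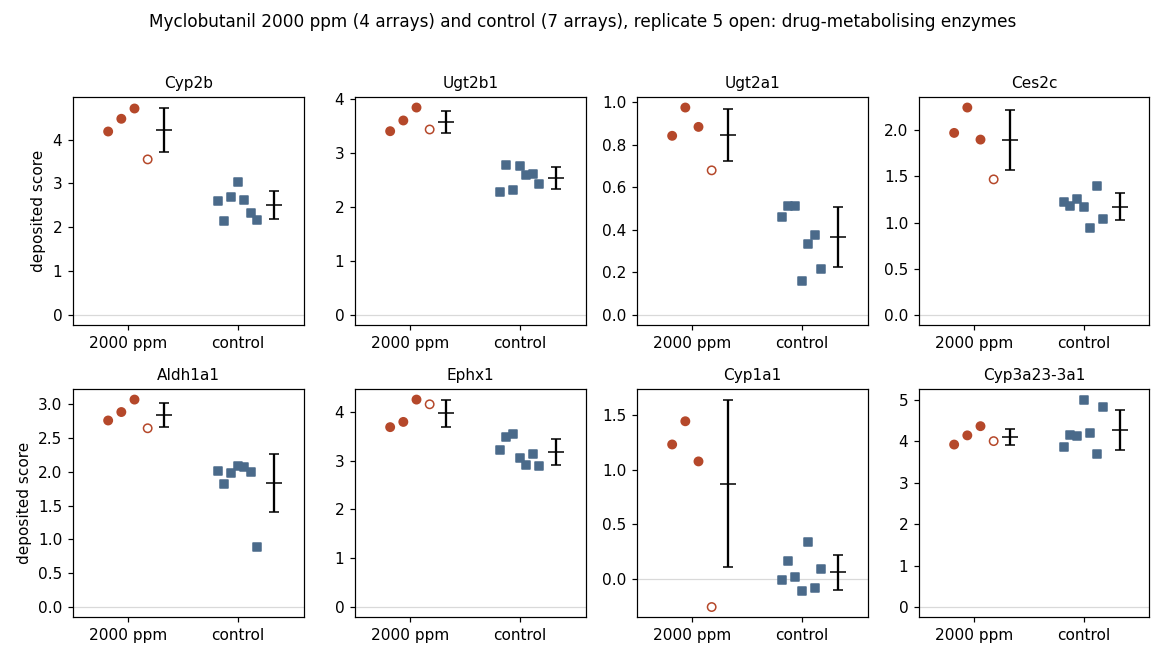
Deposited score per array for 8 drug-metabolising enzymes, 1 panel each, with myclobutanil 2000 ppm (circles, replicate 5 open) left of the controls (squares) and mean and SD beside the points. The groups are apart for Cyp2b, Ugt2b1, Ugt2a1, Ces2c, Aldh1a1 and Ephx1 and overlap for Cyp1a1, where replicate 5 lies at -0.26, and for Cyp3a23-3a1.

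Cyp51, the demethylase that triazoles are made to block in fungi, had 2.64, 2.85, 2.70 and 2.85 at 2000 ppm, against a lowest of 2.67, a median of 3.21 and a highest of 3.74 in the controls. The difference was -0.36 ± 0.263 (adjusted p = 0.387, limma), it was -0.03 after quantile normalisation, and with the covariate it was 0.10. Of 18 measured genes of cholesterol synthesis, 17 had differences below 0 (10494 of all genes, 73.8%), and none passed. At an unadjusted p under 0.05 were 2 of the 18, a smaller share than the 22.1% of all genes that were lower by that measure. Their median was -0.13, and 0.04 after quantile normalisation. Mvd and Pmvk, enzymes of the mevalonate pathway, had -0.21 ± 0.0522 (adjusted p = 0.0738) and -0.37 ± 0.159 (adjusted p = 0.166). Of 23 genes that make fatty acids and triglycerides, 20 had differences below 0 (73.8% of all genes), and none passed. At an unadjusted p under 0.05, 10 were lower (22.1% of all genes) and 1 higher (2.54%), and the median was -0.22. Fasn, the fatty acid synthase, had 1.53, 1.58, 1.64 and 2.23 at 2000 ppm, against a lowest of 1.93, a median of 2.51 and a highest of 3.25 in the controls.

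Across all 39 lists, with 623 measured genes, Birc7 alone passed on the deposited scores. The 6 lowest list medians were -0.41 for 22 complement and coagulation genes, -0.40 for 15 hepatocyte markers, -0.40 for 18 acute phase proteins, -0.40 for 23 genes of lipoproteins and lipid droplets, -0.37 for 26 genes of the urea cycle and amino acid catabolism, and -0.34 for 18 genes of the unfolded protein response, against -0.05 over all genes. After quantile normalisation these were -0.07, 0.00, -0.04, -0.06, -0.07 and -0.11. No gene of these lists passed on the deposited scores, where 3, 1, 2, 5, 8 and 8 of them in the same order were lower at an unadjusted p under 0.05, and 1, of the lipoprotein list, was higher. Beside the 22.1% of all genes lower by that measure, the shares of the first 4 lists were smaller. After quantile normalisation Fabp5 of that list passed and none of the other 5 lists did. In bulk liver, fewer cells of a type and less RNA per cell cannot be told apart. All 18 unfolded protein response genes had differences below 0, as did 73.8% of all genes, among them the chaperones Hyou1 (-0.34 ± 0.143) and Creld2 (-0.42 ± 0.163). Within the urea cycle and amino acid list, 6 of 26 genes had all 4 arrays at 2000 ppm below all controls, such as Glul, the glutamine synthetase of pericentral hepatocytes (-0.65 ± 0.151, adjusted p = 0.0639), beside 476 of all genes (3.35%).

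**Figure D5:**
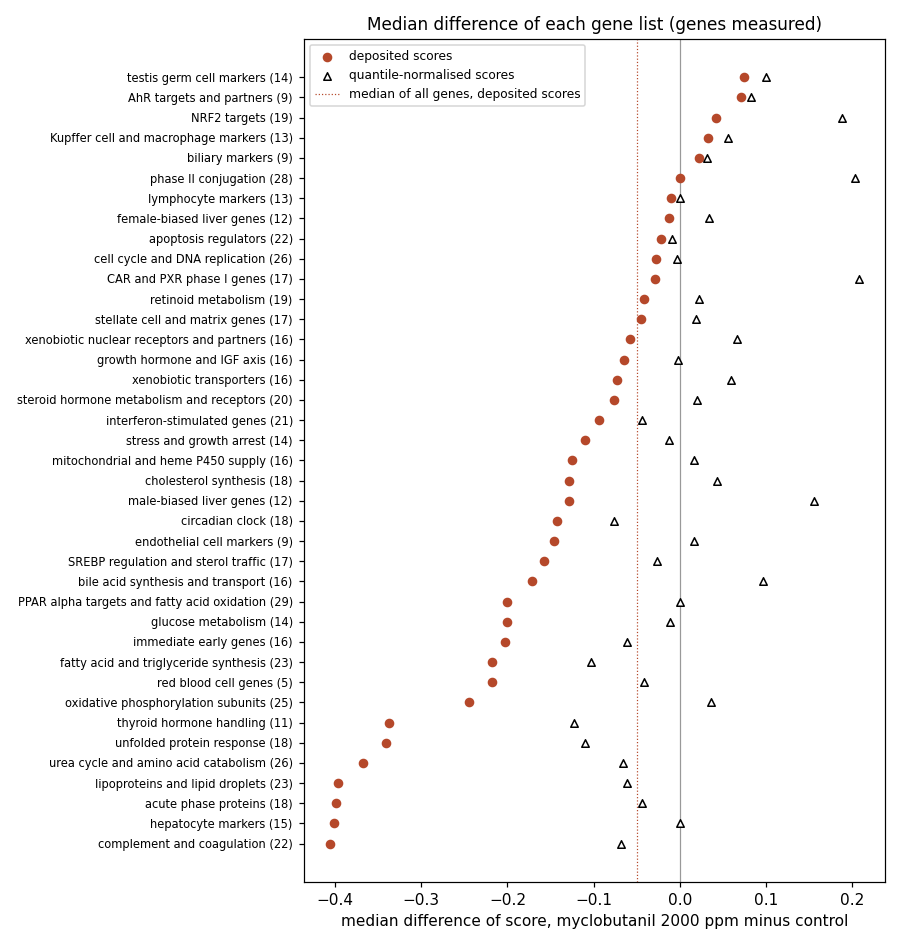
Median difference of score, myclobutanil 2000 ppm minus control, over the measured genes of each list (number in brackets), on the deposited scores (filled circles) and after quantile normalisation (open triangles). Complement and coagulation lies lowest on the deposited scores at -0.41, and CAR and PXR phase I genes lie highest after quantile normalisation at 0.21.

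Markers of other liver cell types were read from 5 lists, and no gene of these passed on the deposited or the quantile-normalised scores. On the deposited scores 2 stellate cell and matrix genes were higher at an unadjusted p under 0.05, and 2 endothelial, 3 stellate cell and matrix, 1 biliary and 1 lymphocyte marker were lower. By the same measure 2.54% of all genes were higher and 22.1% lower, and no list but the endothelial one reached the second share. The median difference of 13 Kupffer cell and macrophage markers was 0.03. The medians were -0.15 for 9 endothelial, -0.05 for 17 stellate cell and matrix, 0.02 for 9 biliary and -0.01 for 13 lymphocyte markers. Among 26 cell cycle and DNA replication genes the median was -0.03, and 17 had differences below 0. None passed, and 2 were higher and 2 lower at an unadjusted p under 0.05. Rrm1, a subunit of the reductase that makes deoxynucleotides, had -0.13 ± 0.0513 (adjusted p = 0.143). Ccnb1 and Cdc20, which drive mitosis, had 0.13 ± 0.0581 (adjusted p = 0.165) and 0.09 ± 0.0361 (adjusted p = 0.151). Among 22 apoptosis regulators Birc7 passed, and Mcl1 and Bcl2l1, which guard against cell death, had -0.37 ± 0.107 (adjusted p = 0.0901) and -0.19 ± 0.0551 (adjusted p = 0.0922).

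Other genes of smallest p that did not pass were, on the higher side, Htatip2, Fignl1, Mplkip, Nceh1 and Dlgap3, with differences from 0.11 to 0.30. On the lower side were Pdk1, Slc2a5, Fabp5, Hdac4, Ppp2r3a, Icoslg, Stx8, Phrf1, Bmp2k and Emx2, all at an adjusted p of 0.0580. Pdk1, a kinase that holds back pyruvate oxidation, differed by -0.39 ± 0.0820, and Slc2a5, the fructose transporter, by -0.29 ± 0.0626. Fabp5 differed by -0.77 ± 0.163, and it overlapped with the controls through replicate 5. Among targets of PPAR alpha, Cyp4a1 differed by -0.79 ± 0.191 (adjusted p = 0.0705), Angptl4 by -0.95 ± 0.226 (adjusted p = 0.0704) and Cyp4a8 by 0.64 ± 0.191 (adjusted p = 0.0922). Cyp4a1 lay below every control on all 4 arrays (3.35% of all genes) and Cyp4a8 above every control (0.302%). The differences of these related fatty acid hydroxylases thus had opposite signs. The 3 targets were picked for small p from 29 measured PPAR alpha targets and fatty acid oxidation genes, none of which passed. At an unadjusted p under 0.05, 4 of the 29 were lower (22.1% of all genes) and 2 higher (2.54%).

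The lower level of the same compound was used for a dose series. The Cyp2b probe set averaged 2.51 ± 0.320 in the controls, 3.96 ± 0.802 at 500 ppm and 4.23 ± 0.502 at 2000 ppm (SD; n = 7, 5 and 4). The difference between 2000 and 500 ppm was 0.27, with a 95% confidence interval from -0.41 to 0.95 (adjusted p = 0.680, limma). App averaged 0.997 ± 0.136, 1.12 ± 0.146 and 1.55 ± 0.0945 in the same order, and the difference between 2000 and 500 ppm was 0.43, from 0.21 to 0.66 (adjusted p = 0.447). No probe set of 31042 passed between 2000 and 500 ppm or between 500 ppm and the controls (0.0% each), while 3404 and 1281 had an unadjusted p under 0.05 in these comparisons. The 3′–5′ difference at 500 ppm was 2.45, 0.521, 0.808, 0.551 and 1.73 in replicates 1 to 5. At 2000 ppm it ran from 0.525 to 0.726. With it as a covariate, 756 probe sets had an unadjusted p under 0.05 between 2000 and 500 ppm. Its part in the dose series was not tested further.

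The same controls serve the other compounds, so their values are given side by side without a comparison, and the levels differ. The Cyp2b probe set averaged 4.23 at myclobutanil 2000 ppm, 4.74 at propiconazole 2500 ppm and 5.44 at triadimefon 1800 ppm. App averaged 1.55, 1.81 and 1.99, and 1379888_at averaged 0.28, 0.17 and 0.08 in that order. Tle1 averaged 0.54 at myclobutanil 2000 ppm, 0.67 at propiconazole 2500 ppm and 1.18 at triadimefon 1800 ppm. The 3′–5′ difference averaged 0.613, 0.609 and 1.49 in that order. Triadimefon 1800 ppm replicates 2 to 4 carry the animal numbers 3153, 3154 and 3170, above 3000 like those of controls 5 to 7. The part of these properties in the values was not tested.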

How the data were processed

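Liver RNA of individual rats was hybridised to 1-colour Affymetrix arrays, per the labels. The authors deposited 1 score per probe set and array. Its scale, log base, centring and summarisation are not given in the files or labels. The test had been planned for log values and was run on the deposited scores unchanged.

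57 Affymetrix control probe sets were set aside. All 7 groups (32 arrays) entered 1 linear model in limma 3.58.1 (R 4.3.3, with package data.table in version 1.17.8), with lmFit and eBayes at their defaults and 25 residual degrees of freedom. Tests were two-sided and adjusted by Benjamini-Hochberg over 31042 probe sets. The tests weigh each difference against the spread between animals, which the series' design text calls biological replicates. Exposure began before birth and litters are not given, so animals that shared a litter could not be accounted for. Precision is limited by the number of arrays.

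The platform annotation gave 1 symbol to 20826 probe sets, several to 436 and none to 9780, and 20758 of the first were matched to the rat gene records. A gene was represented by its probe set of highest mean. Named are all probe sets past the threshold, the 10 next in each direction, up to 3 genes of smallest p per list, and Cyp2b, Cyp1a1, Cyp3a23-3a1 and Cyp51. Groups, 39 gene lists and tests were chosen with earlier results of these data known.

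On simulated scores of this comparison, 62.7% of shifts of 0.25, 89.6% of 0.5 and 98.5% of 1 were recovered among 31042 probe sets. There were 10 false calls. The simulated noise was independent between probe sets, equal in spread across groups and free of effects shared by a whole array. The rates therefore do not tell what share of shifts is recovered on the real arrays. Alternatives were quantile normalisation, scaling, a filter on the dimmest 40%, the 2 groups alone, trend and robust eBayes, array weights, the animal numbers and the replicate numbers as blocks, the 3′–5′ difference as a covariate, and leaving out arrays. Figures were drawn with matplotlib.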

Additional observations from a re-analysis of the deposited data

Results flagged for a closer look

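Within each group, every named gene was checked for 1 array that stands apart from the others of its group by Dixon's 95% critical value. Chance flags about 1 in 20 groups, and 22 of 306 groups held such an array, 15 of them at myclobutanil 2000 ppm and 7 among the controls.

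Replicate 5 at 2000 ppm was that array on 12 genes or probe sets. Among genes of the unfolded protein response it had 2.07 for Sdf2l1, 1.79 for Creld2 and 1.24 for Hyou1, each above replicates 2 to 4. It was also the highest of the 4 for the fatty acid synthase Fasn (2.23), for the fatty acid hydroxylase Cyp4a1 (2.35), for the receptors Csf1r (1.01) and Tek (0.824), and for the sperm proteins Odf1 (1.34) and Akap4 (0.190). On 2 probe sets that fell it lay nearest the controls, with 1.13 for 1379888_at and 0.227 for 1382107_at. For the transporter Slc16a10 it was the lowest, at 0.170.

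Replicate 4 at 2000 ppm stood apart with 3.09 for Akr7a3, 0.0809 for Dlgap3 and 1.31 for Mcl1, the last below its group. Among the controls, replicate 3 had 0.182 for Birc7, the value nearest to the animals at 2000 ppm, and replicate 2 had 0.608 for Fam117b, again the nearest. Control 7 had 0.888 for Aldh1a1 and 2.72 for Psmb8, control 4 had 2.21 for Nr3c1, control 2 had 0.512 for Akr1b7, and control 5 had 0.0957 for Atf3. The cause of these values was not tested.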

How the results depend on the processing

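The count of probe sets past the threshold, 20 against the controls, moved with most alternatives. It was 79 after quantile normalisation, 44 after centring and scaling each array, 120 with trend and robust eBayes, 12216 with array weights, 2 with the animal number series as a block, 0 among animals numbered below 3000, 2 with the 3′–5′ covariate, and 9 with quantile normalisation and that covariate together, which was added after seeing the data. It stayed within 1.5 times with the dimmest probe sets left out, with only the 2 groups, and without the arrays of high GAPDH difference (20, 28 and 23), but of the 20 probe sets 18, 6 and 6 were among those that passed. Leaving out 1 array gave 0 to 3013: 332 without control 1, 38 without control 2, 3013 without control 3, 0 without control 4, 7, 6 and 9 without controls 5, 6 and 7, 0 without replicate 2, 3 or 4 at 2000 ppm, and 9 without replicate 5. Replicate numbers did not pair the animals: correlations of the deviations of equal numbers ran from -0.195 to 0.174. With the replicate block 0 probe sets passed (4135 at an unadjusted p under 0.05). Against 500 ppm 0 passed under every alternative run, the replicate block included. Of list genes, 1 passed on the deposited scores, 12 after quantile normalisation, 7 after scaling, 5 with only the 2 groups and 0 among animals numbered below 3000. The causes were not tested. Of 20 called probe sets none changed sign under any alternative run (262 of 459 values no longer passed). They had been picked for small p on the same arrays, which makes a change of sign unlikely. Among the other named genes the sign turned on the following. With the covariate the differences were 0.10 for Cyp51, 0.0929 for Cps1, 0.13 for Cyp2b3, 0.46 for Cyp3a23-3a1, 0.0263 for Ndufb5 and 0.0030 for Clec4f. After quantile normalisation they were 0.17 for Cyp3a23-3a1, 0.0629 for Cyp2b3, 0.0087 for Hba-a3 and 0.0053 for Sycp1, and with the covariate added 0.30 for Cyp3a23-3a1, 0.12 for Cyp51, 0.0071 for Cyp2b3, 0.0118 for Cps1 and 0.0133 for Clec4f. After scaling they were 0.23 for Cyp3a23-3a1 and 0.10 for Cyp2b3, and without the arrays of high GAPDH difference 0.0658 for Cyp3a23-3a1 and -0.0775 for Crp. Signal against background could not be read, since the deposited score gives no background.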

Other observations

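Replicate 5 at 2000 ppm stood apart from its group over whole lists. The mean score of 18 unfolded protein response genes was 1.94, 2.02, 2.09 and 2.42 in replicates 2 to 5, against a lowest of 2.26 in the controls. For 23 genes of fatty acid and triglyceride synthesis it was 1.35, 1.37, 1.52 and 1.82, against a lowest of 1.62. On both lists replicates 2 to 4 lay below every control and replicate 5 within their range. The pattern was not confined to them. It also held for the lists of glucose metabolism, SREBP regulation and sterol traffic, and interferon-stimulated genes. The urea cycle and amino acid list and the circadian clock list had it too. Replicate 5 had the lowest score of its group for Cyp2b (3.55), Ces2c (1.47), Abcc3, an efflux transporter (0.00), and Cyp1a1 (-0.26). It was not the lowest over whole lists of drug-metabolising genes. The mean score of CAR and PXR phase I genes was 2.98, 3.13, 3.32 and 3.13 in replicates 2 to 5. For phase II conjugation genes, such as Ugt2b1, it was 2.01, 2.10, 2.26 and 2.21.

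Transcripts of late sperm cells were read on liver arrays of most groups. Over the 21 arrays of the other groups, the score of Prm1 ran from -0.33 to 3.15 and that of Tnp1, a transition protein that precedes protamines on sperm DNA, from -0.34 to 1.37. Replicate 5 at 2000 ppm had 2.51 for Prm1 and 1.44 for Tnp1. Prm1 lay below 0 on controls 5 and 6 (-0.26 and -0.27) and on triadimefon 1800 ppm replicates 1, 3 and 4 (-0.24, -0.25 and -0.33). Akap4, another sperm tail gene, lay at or below 0.201 on every array. No array of the other 5 groups had Prm1 below 0. The source of these values was not tested.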
